A study of Mus musculus with 5 samples.

Results

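Krüppel-like factors were examined in mouse aorta: 9 genes of the family, out of 12393 named genes measured. They were Klf2, Klf3, Klf4, Klf5, Klf6, Klf9, Klf10, Klf13 and Klf15, found by their annotated symbols at 23 probe sets, the groups of short probes with which an Affymetrix array reads 1 transcript. The study compared male mice that carry the db allele of Lepr, the gene of the leptin receptor, on both chromosomes (db/db) and become obese and diabetic with heterozygous db/+ mice. Both came from 1 colony of strain BKS.Cg-m +/+ Lepr db/J, and db/+ mice thus carry 1 mutant copy of Lepr. The m in that name is a coat colour allele, misty, whose genotype the labels do not give for either group. Regular chow was fed, and ages ran from 16 to 20 weeks. Each array held RNA pooled from 6 aortas stripped of adventitia and fat. There were 3 db/db pools, numbered 1, 2 and 3, and 2 db/+ pools, numbered 2 and 3. The spread between arrays is therefore that between pools. Another db/+ pool of the design was not analysed here.

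Krüppel-like factors are transcription factors with a shared zinc finger domain at the C-terminal end that binds GC-rich and CACCC sequences, while their other parts differ and make some activators and others repressors. In the vessel wall Klf2 and Klf4 are induced in endothelium by laminar blood flow and keep it quiescent and anticoagulant. Klf4 and Klf5 take part in the switch of smooth muscle cells between contractile and growing states. Klf9 and Klf15 are induced by glucocorticoids, and several members act in fat cell formation.

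Values are MAS5 signals, a linear brightness per probe set that was scaled by the authors. Log2 differences are db/db minus db/+ on the log2(signal + 16) scale, which understates changes of dim probe sets, with the standard error (SE) and 95% interval from limma. Levels are not compared between probe sets, because each has its own brightness per molecule. Across tested probe sets any pair of arrays correlated with r between 0.952 and 0.977, and the ratio of 3' to 5' actin signal lay between 1.14 and 1.34. Smooth muscle markers were bright on every array, with a summed signal of 8 genes of 21219 or more. Markers of fat, heart and liver were also measured. No marker of any list was at 0, but a signal above 0 does not by itself show that a tissue was present. The liver marker Fgb, for instance, had 1.3 to 3.4. Some fat markers were bright on every array, although the aortas were stripped of fat. Fabp4 had 3129.6 to 5654.4 and the brown fat marker Ucp1 2136.2 to 4334.5, whereas Lep had 12.0 to 301.6. The summed signal of 10 endothelial markers was 1398 to 1748 in db/db and 2124 to 2241 in db/+, and that of 10 macrophage markers was 2379 to 2897 and 4028 to 5203. In such tissue RNA, fewer cells of a type and less RNA per cell cannot be told apart.

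No Krüppel-like factor differed between genotypes past the threshold of an adjusted p of 0.05. Of the 23 probe sets, 21 had a mean signal above the filter for dim probe sets (a signal of about 39.5), and these covered all 9 genes. Among them, 15 had a negative and 6 a positive log2 difference. The median was −0.20, while over all 13575 probe sets tested it was 0.017 and 47% were negative. By limma 0 of the 21 were called, where 11 of all probe sets were (0.081%), every one lower in db/db. At an unadjusted p under 0.05 there were 3 of 21, each lower in db/db, against a background of 8.13% in either direction, 4.15% lower and 3.98% higher. At 4 of 21 the genotypes' arrays were fully apart, all lower in db/db, where 25% of all probe sets showed no overlap and 11.9% none with db/db lower. The number with a negative change was 14 of 21 after quantile normalization and 16 after median centring. It was 12 without db/+ replicate 2, also 12 without db/db replicate 3, and 20 without db/+ replicate 3.

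**Figure D1:**
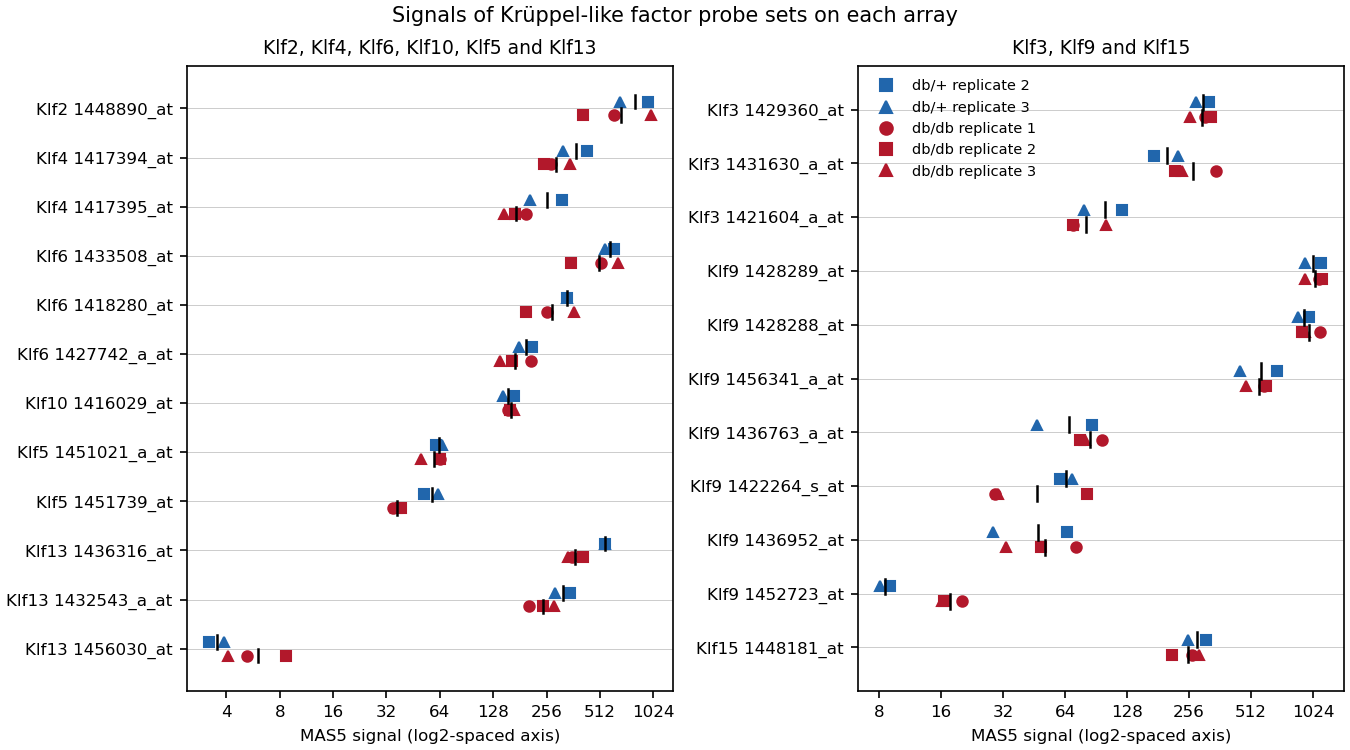
MAS5 signal on each array (horizontal axis, log2-spaced) for all 23 probe sets of the 9 genes. Blue symbols are db/+ arrays, red symbols db/db arrays, the shape gives the replicate and black bars the genotype means. The upper probe set of Klf13 is lower on all 3 db/db arrays, whereas Klf2 spreads from 409 to 989 among db/db arrays.

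The precision of the comparison differed between members. The 95% interval stayed within a 2-fold change in either direction at 18 of 21 probe sets, and passed it for Klf2, for 1 probe set of Klf4 and for 1 of Klf9. Klf2 had a within-genotype SD of 0.55 on the log2 scale, at percentile 97.9 of all tested probe sets. The SD of Klf10 was 0.086, at percentile 9.4. The median over the 21 was 0.26, against 0.19 over all tested probe sets.

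**Figure D2:**
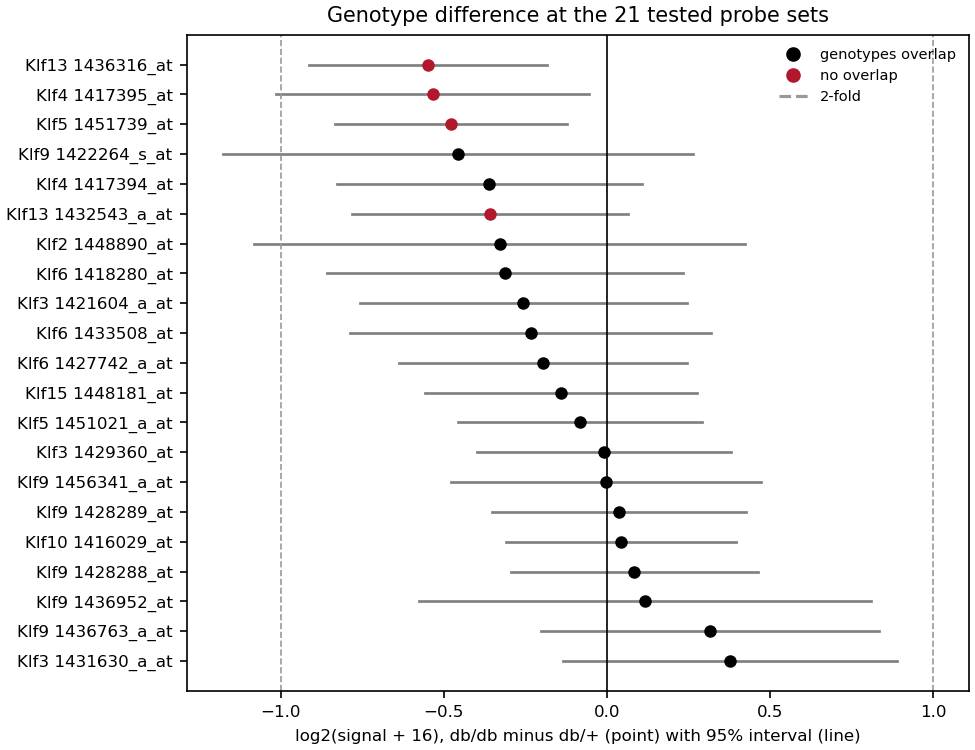
Log2 difference (db/db minus db/+, horizontal axis) with its 95% interval for the 21 tested probe sets, ordered by size. Red points mark the 4 probe sets whose arrays did not overlap between genotypes. Changes run from −0.55 for Klf13 to 0.38 for Klf3, and 0 of the 21 passed the adjusted threshold.

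Klf13, an activator known for driving the chemokine gene Ccl5 in T cells, had the smallest p of the family. At probe set 1436316_at its signals were 356, 411 and 340 on the db/db arrays (replicates 1, 2 and 3) and 544 and 547 on the db/+ arrays. All db/db arrays lay below both db/+ arrays, and the db/+ arrays were nearly equal. The means were 369 ± 37.3 (SD, n = 3) and 546 ± 1.84 (SD, n = 2), a log2 difference of −0.55 (SE 0.16, interval −0.91 to −0.19, limma adjusted p = 0.36, unadjusted p = 0.0079). The value lay between −0.63 and −0.49 over 14 alternative settings, of which the filters and the eBayes option cannot change it. Where both genotypes kept at least 2 arrays, the limma adjusted p ran from 0.227 to 0.523. Probe set 1432543_a_at gave 204, 245 and 283 in db/db against 345 and 287 in db/+, again without overlap, though by a narrow margin. Its log2 difference was −0.36 (SE 0.19, adjusted p = 0.68), with −0.23 without db/+ replicate 2 and −0.24 without db/db replicate 1. A further Klf13 probe set, 1456030_at, had signals of 3.2 to 8.7 and lay under the filter. Lymphocyte markers had differences of the other sign: the 3 of 8 that were tested (Zap70, Cd79a and Cd79b) all had a positive log2 difference. Of these Cd79a overlapped between genotypes, and Cd3e, Cd3g and Cd2 lay under the filter. The list's summed signal was 388 to 805 in db/db and 307 to 336 in db/+. Without Zap70 the sum was 365, 158 and 152 in db/db and 166 and 151 in db/+, so that the groups overlapped and db/db replicate 1 stood apart. The 10 macrophage markers all had negative changes, and their part in the Klf13 values was not tested.

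Klf4, a flow-induced factor of endothelium that also represses contractile genes in smooth muscle, had a lower mean in db/db at both of its probe sets, with neither past the adjusted threshold. At 1417395_at the db/db signals were 197, 170 and 147 and the db/+ signals 312 and 206. The highest db/db array lay just under the lower db/+ array. The log2 difference was −0.53 (SE 0.21, interval −1.02 to −0.05, adjusted p = 0.56, unadjusted p = 0.033). At 1417394_at the signals were 271, 247 and 348 in db/db and 432 and 319 in db/+. Here db/db replicate 3 stood above db/+ replicate 3, so that the groups overlapped, with a log2 difference of −0.36 (SE 0.20, adjusted p = 0.72). Both probe sets were negative in all 14 alternative settings, some of which cannot change the value, and the size depended on the db/+ arrays. The value at 1417395_at was −0.25 without db/+ replicate 2 and −0.82 without db/+ replicate 3, and at 1417394_at it was −0.15 and −0.57.

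Klf2 and Klf6 varied among pools of 1 genotype more than between genotypes. Klf2, the factor through which laminar flow raises anticoagulant and vasodilator genes in endothelium, had 615, 409 and 989 in db/db and 956 and 662 in db/+. The db/db arrays thus held both the highest and the lowest value, and the log2 difference was −0.33 (SE 0.33, interval −1.08 to 0.42, adjusted p = 0.87). Leaving out db/db replicate 2 gave −0.03 and leaving out db/db replicate 3 gave −0.65, against −0.07 and −0.59 without db/+ replicate 2 or 3. Klf6, a widely expressed factor of the response to vessel injury, had 519, 352 and 647 in db/db and 617 and 546 in db/+ at 1433508_at. Its probe set 1418280_at had 256, 196 and 368 against 334 and 332. Among db/db arrays replicate 2 was again the lowest and replicate 3 the highest. Replicate 2 also stood apart in heart markers, with a summed signal of 3880 against 507 and 756 in the other db/db pools (the atrial gene Nppa had 1304 against 28.7 and 47.9). Brown fat sums were 5782.6, 11256 and 10060.5 in db/db replicates 1, 2 and 3, so that replicates 2 and 3 were both high. The part of such tissue in the Klf2 and Klf6 values was not tested. The log2 differences were −0.23 (SE 0.24) and −0.31 (SE 0.24), and the third probe set, 1427742_a_at, had −0.20 (SE 0.19). Its db/db signals of 208, 163 and 141 put replicate 3 lowest, so the probe sets of Klf6 do not order the pools alike. Without db/db replicate 2 the log2 differences were −0.0018 at 1433508_at, −0.11 at 1418280_at and −0.18 at 1427742_a_at, and without db/db replicate 3 they were −0.43, −0.54 and −0.08. Without db/+ replicate 2 the value at 1427742_a_at was −0.09, and that at 1433508_at was −0.15.

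The order seen at Klf2, with db/db replicate 3 above 1 above 2 and db/+ replicate 2 above 3, was looked for elsewhere after it had been seen. It held at 5 of the 21 probe sets: Klf2, 1 of Klf4 (1417394_at), 2 of Klf6 (1433508_at and 1418280_at) and Klf15. Without Klf2, whose values defined the order, that is 4 of 20 (20.0%), and over all tested probe sets 8.2% had it. The share was 22.2% for the glucocorticoid responsive genes and 18.2% for the flow signalling genes described with the members they act with. The order was absent among the tested other Sp and Klf genes, Klf15 metabolic targets and fat cell formation genes. In the remaining lists, immediate early genes apart, 6.67% (clock genes) to 14.3% (smooth muscle genes) showed it. Immediate early genes, which cells switch on within minutes of a stimulus, showed it at 10 of 19 tested members: Fos, Jun, Egr1, Egr2, Atf3, Nr4a1, Zfp36, Fosl1, Ccn1 and Btg2. Relative to the db/+ mean, the median immediate early gene had a log2 level of −0.14, −0.45 and 0.32 in db/db replicates 1, 2 and 3. The corresponding values of Klf2 were −0.36, −0.93 and 0.31. As a list the immediate early genes had 9 positive and 10 negative changes between genotypes, with a median of −0.08 and 0 called. Their smallest p values belonged to Fosl2 (log2 difference 0.35), Jund (0.31) and Egr1 (0.50), with adjusted p of 0.61, 0.77 and 0.80. All these values come from the same 5 arrays, and the part of handling or of any other shared influence on a pool was not tested.

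**Figure D3:**
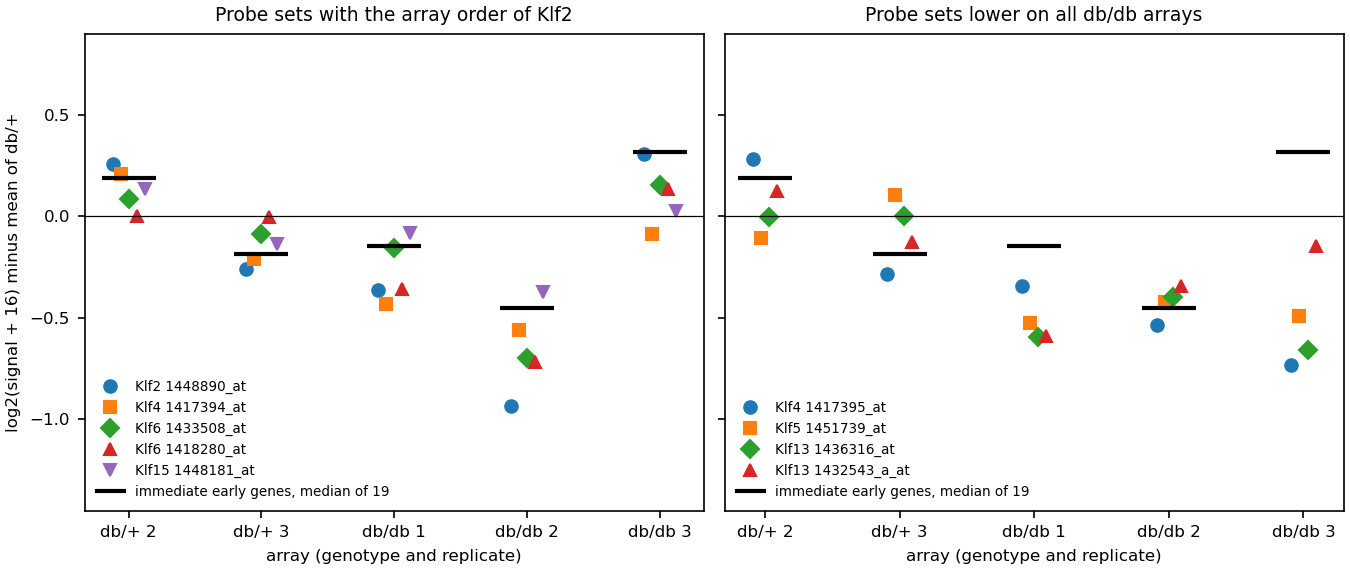
Log2(signal + 16) of each array minus the mean of the db/+ arrays (vertical axis), by array. Left, the 5 probe sets with the array order of Klf2; right, the 4 probe sets lower on all db/db arrays; black bars in both are the median of 19 immediate early genes. In the left panel db/db replicate 2 is lowest and replicate 3 highest of the db/db arrays for both symbols and bars, and in the right panel all db/db symbols lie below 0.

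The proximal promoters of Klf2, Klf4, Klf6 and Klf13 are shown. Klf2, 1 probe set of Klf4 and 2 of Klf6 shared an array order, while Klf13 had the smallest p of the family. Klf15 also had that order, but its promoter is not printed. Sequences are the 250 bases before the annotated start, from RefSeq on GRCm38.p6, and 7 of the 9 genes had an entry (Klf5 and Klf10 had none). Capitals mark GC boxes, GGGCGG or its reverse complement, and in Klf2 also a match to the MEF2 element, whose letters were searched as CTANNNNTAG. Klf2 lies at chr8:72318812-72319061 (plus strand), Klf4 at chr4:55532476-55532725 (minus strand), Klf6 at chr13:5861239-5861488 (plus strand) and Klf13 at chr7:63938916-63939165 (minus strand), each printed 5′ to 3′ along its gene.
Klf2: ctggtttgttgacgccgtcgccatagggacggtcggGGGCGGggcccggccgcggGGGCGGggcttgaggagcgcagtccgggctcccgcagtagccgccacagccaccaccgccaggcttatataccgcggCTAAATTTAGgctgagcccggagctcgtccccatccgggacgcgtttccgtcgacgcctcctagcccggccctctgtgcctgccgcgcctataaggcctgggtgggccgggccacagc
Klf4: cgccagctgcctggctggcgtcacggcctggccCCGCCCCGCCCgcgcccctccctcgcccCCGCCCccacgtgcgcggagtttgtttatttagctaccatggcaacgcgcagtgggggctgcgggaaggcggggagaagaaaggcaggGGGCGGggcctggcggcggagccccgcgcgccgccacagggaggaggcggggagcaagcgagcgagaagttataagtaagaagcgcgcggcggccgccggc
Klf6: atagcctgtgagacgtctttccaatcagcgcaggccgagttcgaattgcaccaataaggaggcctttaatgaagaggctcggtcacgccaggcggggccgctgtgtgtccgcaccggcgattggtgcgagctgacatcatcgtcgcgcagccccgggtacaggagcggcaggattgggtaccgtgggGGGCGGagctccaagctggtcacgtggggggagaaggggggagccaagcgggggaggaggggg
Klf13: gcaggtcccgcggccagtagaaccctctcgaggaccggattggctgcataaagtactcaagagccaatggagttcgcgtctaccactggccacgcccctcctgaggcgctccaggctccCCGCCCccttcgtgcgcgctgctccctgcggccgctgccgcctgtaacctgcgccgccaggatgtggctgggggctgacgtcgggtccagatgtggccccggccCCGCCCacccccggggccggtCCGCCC

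A GC box was present in 6 of the 7 family promoters, all but Klf9, where 32.7% of 32851 RefSeq promoter windows of the same length have one on either strand. GC boxes are themselves sequences to which Krüppel-like and Sp factors bind. Klf4 held 4, Klf13 held 3, Klf2 held 2 and Klf6 held 1, with overlapping matches counted apart. Klf2 was the 1 of 7 with the MEF2 element, found in 3.2% of windows. This motif was not among those planned for the search. In Klf2 it lies 118 to 109 bases before the start, and MEF2 factors are known to carry the flow signal to this gene. The E-box CACGTG was in 3 of 7 (Klf4, Klf6 and Klf15) and in 6.02% of windows, the CACCC box in 5 of 7 and 52%. The core of the cyclic AMP element, TGACG, was in 5 of 7 and 17.8%. The TATA box TATAAA and the glucocorticoid receptor core TGTTCT had 0 matches in the 7, against 12.4% and 16.1% of windows. Such matches describe these letters and were not tested for binding. In the 7 windows G and C made up from 59.6% (Klf9) to 78.4% (Klf3) of the bases. The part of base composition in the motif counts was not tested.

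Upstream of Klf2 and Klf4, flow acts through the kinases Map3k3, Map2k5 and Mapk7 on MEF2 factors. Of 12 measured genes of this list 11 were tested, with 2 positive and 9 negative changes, a median of −0.05 and 0 called; over all 8263 named genes tested the median was 0.021. The MEF2 gene Mef2c had 696, 679 and 595 in db/db and 534 and 466 in db/+, higher on every db/db array. Its log2 difference was 0.38 (SE 0.16, adjusted p = 0.61), and 4 other probe sets of Mef2c had changes from 0.023 to 0.42. Map2k5 had 88.9, 99.2 and 98.0 in db/db and 129 and 118 in db/+, a log2 difference of −0.32 (SE 0.15, adjusted p = 0.65). Ccm2, an endothelial scaffold that restrains this kinase cascade, had −0.16 (adjusted p = 0.87), while other probe sets of it had 0.27 and 0.27. Mapk7 lay under the filter and was not tested. Its signals were 8.8, 10.5 and 17.4 in db/db and 42.5 and 38.8 in db/+, which do not overlap, and it was named after its values were seen.

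Genes that Klf2 and Klf4 control in endothelium had 13 negative and 3 positive changes among 16 tested, with a median of −0.18 and 0 called. The list does not separate genes that these factors raise from genes they lower, so its counts give no direction of their action. The protein C receptor gene Procr had 48.2, 44.9 and 64.3 in db/db and 149 and 95.6 in db/+. All db/db arrays lay below db/+, with a log2 difference of −0.996 (SE 0.21, adjusted p = 0.19). The connexin gene Gja4 had a log2 difference of −0.50 (SE 0.17, adjusted p = 0.47) and the angiopoietin receptor gene Tek −0.43 (SE 0.19, adjusted p = 0.61), both without overlap. Nos3 and Thbd, the targets most often used as readouts of Klf2, were named after their values were seen. Nos3 (endothelial nitric oxide synthase) had 118, 149 and 199 in db/db and 172 and 184 in db/+, and Thbd (thrombomodulin) had 342, 251 and 310 against 331 and 334. Both overlapped, with log2 differences of −0.21 and −0.15 and adjusted p of 0.87 and 0.89. Endothelial markers had differences mostly of the same sign as these targets, with 8 of 10 negative and a median of −0.43. Kdr is in both lists. The part of the markers' cells in the result was not tested.

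Klf5, an activator of growth genes in smooth muscle that also drives fat cell formation, gave different values at its probe sets. At 1451739_at the signals were 35.0, 38.9 and 36.3 in db/db and 52.3 and 62.9 in db/+, with no overlap but close to the filter. The log2 difference was −0.48 (SE 0.16, interval −0.83 to −0.12, adjusted p = 0.45, unadjusted p = 0.0145), and −0.27 with a pseudocount of 64. At 1451021_a_at they were 64.1, 63.8 and 50.3 against 61.2 and 65.9, a log2 difference of −0.08 (SE 0.16, adjusted p = 0.94). Smooth muscle genes under Klf4 and Klf5 had 10 positive and 4 negative changes, a median of 0.16 and 0 called. The list joins contractile genes, which Klf4 represses, with growth genes, which Klf5 raises, so its counts give no direction of their action. The cyclin gene Ccnd1, a growth gene raised by Klf5, had 213, 215 and 213 in db/db and 330 and 309 in db/+. That is a log2 difference of −0.54 (SE 0.15, adjusted p = 0.32), and its other probe sets had −0.67 and −0.59. The contractile genes Lmod1 and Smtn were higher on every db/db array, with log2 differences of 0.36 (SE 0.18) and 0.32 (SE 0.17) and adjusted p of 0.67 and 0.70. Smooth muscle markers had 7 of 8 positive differences, but 7 of these 8 genes are also members of the list, so the counts are not separate.

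Klf10, induced early by TGF-beta, varied little. It had 155, 160 and 169 in db/db and 167 and 146 in db/+, a log2 difference of 0.04 (SE 0.16, interval −0.31 to 0.40, adjusted p = 0.97). The TGF-beta genes linked to Klf6 and Klf10 had 5 positive and 6 negative changes, a median of −0.03 and 0 called. The haem oxygenase gene Hmox1 had 59.0, 50.5 and 50.2 in db/db and 85.0 and 73.8 in db/+ (log2 difference −0.46, SE 0.16, adjusted p = 0.47). The inhibitory Smad7 had −0.29 and the receptor gene Tgfbr1 −0.16, with adjusted p of 0.79 and 0.86, and dimmer probe sets of Tgfbr1 had 0.16 and −0.36.

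Klf15 and Klf9, the members induced by glucocorticoids, had differences near 0 at their brightest probe sets. Klf15, which raises amino acid breakdown and the glucose transporter gene Slc2a4, had 263, 213 and 286 in db/db and 308 and 254 in db/+. The groups overlapped, with a log2 difference of −0.14 (SE 0.18, interval −0.56 to 0.28, adjusted p = 0.90). It was −0.0083 without db/+ replicate 2 and −0.27 without db/+ replicate 3, and leaving out db/db replicate 2 or 3 gave −0.03 or −0.23. Klf9, also a thyroid hormone responsive factor, had 1091, 1128 and 939 against 1123 and 931 at 1428289_at and 1101, 906 and 940 against 982 and 867 at 1428288_at. The log2 differences were 0.04 (SE 0.17) and 0.08 (SE 0.17), and the interval of the second ran from −0.29 to 0.46. At 1456341_a_at the change was −0.0039 (SE 0.21). The dimmer Klf9 probe sets ranged more widely: 1436763_a_at had 0.32, 1436952_at had 0.12 and 1422264_s_at, whose suffix marks probes shared with related transcripts, had −0.46, with adjusted p of 0.80, 0.95 and 0.79. Within db/db, 1422264_s_at had 29.1, 81.4 and 30.1, and its difference was −0.82 with replicate 2 left out and −0.27 with replicate 1 left out. Probe set 1452723_at lay under the filter at 16.1 to 20.1 in db/db and 8.1 to 9.0 in db/+.

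The glucocorticoid responsive list, 18 genes that included the receptor gene Nr3c1, had 17 negative changes and 1 positive (Nr3c1 itself, 0.18), with a median of −0.58 and 0 called. The genotypes' arrays were apart at 11 of the 18 (61.1%), all lower in db/db, where 12.0% of all named genes tested were apart with db/db lower and 13.7% with db/db higher. Angptl4, a lipase inhibitor, had 246, 329 and 359 in db/db and 823 and 806 in db/+ (log2 difference −1.36, SE 0.19, adjusted p = 0.052). The metallothionein gene Mt2 had −0.88 (SE 0.18, adjusted p = 0.18) and the kinase gene Map3k6 −0.70 (SE 0.15, adjusted p = 0.19). Whether Klf9 or Klf15 differed from this list was not tested. Metabolic targets of Klf15 had 8 positive and 6 negative changes, a median of 0.03 and 0 called. The members with the smallest p were the tyrosine breakdown genes Hpd (log2 difference −1.01, SE 0.18, adjusted p = 0.11) and Tat (−0.74, SE 0.20, adjusted p = 0.32), then Pck1 of glucose synthesis (−0.61, SE 0.32, adjusted p = 0.69). All 3 are strongly expressed in liver, and Tat is also 1 of the 8 liver markers measured, so the 2 sets are not separate. The markers' summed signal was 329 to 589 in db/db and 1309 to 1348 in db/+. Of the 7 markers tested, 6 had negative differences, while Apoa1 had 0.81 and was higher on every db/db array. The part of liver RNA in these values was not tested. Slc2a4, named after its values were seen, had 371, 397 and 365 against 359 and 339 (0.11, SE 0.15, adjusted p = 0.91).

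Several family members are also under the circadian clock. The 15 clock genes tested had 7 positive and 8 negative changes, a median of −0.00088 and 0 called. Its members with the smallest p had differences of opposite sign. The repressor genes Cry2 and Per2 had log2 differences of −0.70 (SE 0.16, adjusted p = 0.24) and −0.72 (SE 0.24, adjusted p = 0.45), with −0.21 at a second probe set of Per2. The nuclear receptor gene Nr1d1 had 521, 547 and 486 in db/db and 384 and 304 in db/+ (0.58, SE 0.17, adjusted p = 0.36).

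Klf3, a repressor that works through the corepressor CtBP and restrains fat cell formation, had probe sets of either sign. At 1429360_at the signals were 306, 327 and 259 in db/db and 321 and 276 in db/+, a log2 difference of −0.0087 (SE 0.17, interval −0.40 to 0.38). At 1431630_a_at they were 347, 218 and 238 against 173 and 227, with db/db replicate 1 well above the rest (0.38, SE 0.22, adjusted p = 0.74). That value was 0.18 when db/db replicate 1 was left out and 0.19 without db/+ replicate 2. At 1421604_a_at the change was −0.26 (SE 0.22, adjusted p = 0.84). Cofactors and turnover genes of the family had 5 positive and 9 negative changes, a median of −0.06 and 0 called. Usp10, a deubiquitinase, had 140, 188 and 351 in db/db and 115 and 134 in db/+ (0.70, SE 0.32, adjusted p = 0.64). The coactivator gene Crebbp had −0.35 (adjusted p = 0.68). Wwp1, a ubiquitin ligase that targets Klf2 and Klf5, had −0.24 (adjusted p = 0.77), and its dimmer probe sets had −0.90 (adjusted p = 0.083) and −0.29. The partners of Klf3, Ctbp1 and Ctbp2, were named after their values were seen and had −0.06 and −0.02.

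Genes with which the family acts in fat cell formation had 8 negative and 2 positive changes, a median of −0.36 and 0 called. The early factor Cebpd had 464, 295 and 395 in db/db and 574 and 578 in db/+ (log2 difference −0.59, SE 0.20, adjusted p = 0.47), while its dimmer probe set had 0.03. Cebpa had −0.46 (SE 0.19, adjusted p = 0.61). Pparg, the main regulator of fat cells and a target of Klf5 and Klf15, had 47.5, 125 and 186 against 222 and 213 (−0.94, SE 0.40, adjusted p = 0.61). Of the 7 white fat markers measured 6 had negative differences, with a median of −0.44, and 3 of the 7 (Adipoq, Fabp4 and Pparg) are also in this list. The leptin gene Lep, itself a marker, was called lower, with 23.4, 12.0 and 35.0 in db/db and 302 and 264 in db/+ (−2.96, limma adjusted p = 0.00727). The markers' summed signal was 5510 to 9542 in db/db and 8501 to 9088 in db/+. Without Fabp4, the brightest of them, it was 2381, 3888 and 3639 against 4799 and 4212, which do not overlap. This second sum was not among those planned. Its brightest member was Adipoq, with 1394, 2062 and 2010 against 2791 and 2122. Cidec overlapped between genotypes, and Retn had a log2 difference of 0.49 and was higher on every db/db array. The part of fat tissue in these values was not tested.

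**Figure D4:**
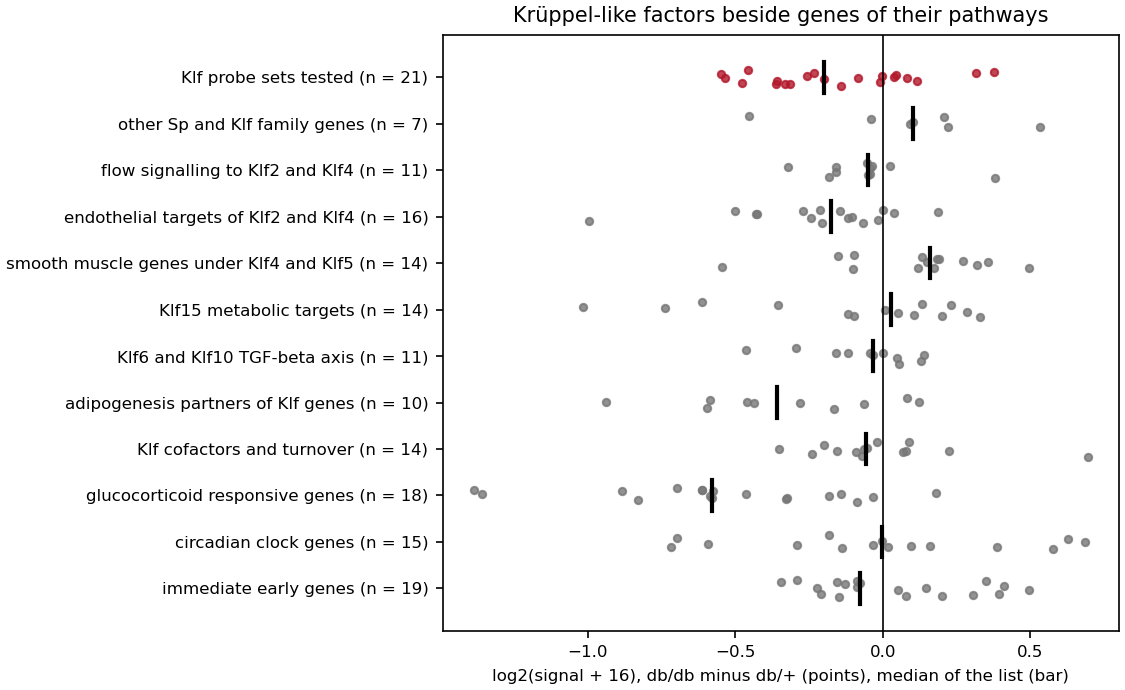
Log2 difference (db/db minus db/+, horizontal axis) of the 21 tested probe sets (red) and of the tested genes of each pathway list (grey, 1 probe set a gene), with black bars at the medians. The median is −0.20 for the Krüppel-like factors, −0.58 for glucocorticoid responsive genes and 0.16 for smooth muscle genes, and single genes spread on both sides of 0 in every list.

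Other genes of the Sp and Krüppel-like family completed the comparison. Of 11 measured, 7 were tested, with 5 positive and 2 negative changes, a median of 0.10 and 0 called. Sp1 and Sp3, which bind GC boxes in most cells, had log2 differences of 0.21 (SE 0.22, adjusted p = 0.87) and −0.45 (SE 0.27, adjusted p = 0.75), with overlapping arrays. Sp7, a factor of bone cells, had 97.4, 58.5 and 28.6 in db/db and 55.8 and 18.7 in db/+ (0.53, SE 0.40, adjusted p = 0.81). Klf7 had 0.09 and Klf1, a red cell factor, −0.04. Klf16 and Klf17 were slightly higher on every db/db array, with 0.10 and 0.22 and adjusted p of 0.91 and 0.80. Klf12, Sp4, Sp5 and Sp6 had signals under the filter, of 21.2 or less on every array.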

How the data were processed

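Aorta RNA was hybridised to Affymetrix arrays, 1 pool of 6 aortas per array. The authors deposited linear signal intensities from MAS5, named without a version in the submitters' processing notes; 2% trimmed means were between 150.0489 and 150.0528 on all arrays, so no normalization was added. The genome build behind the arrays is not given in the sources used here. The table held 22690 probe sets; 64 controls were left out, and 20380 had 1 gene symbol, 691 several and 1555 none. Signals were transformed to log2(signal + 16), and 13575 probe sets whose mean of these log2 values exceeded the 40th percentile entered limma's moderated two-sided test (limma 3.58.1, R 4.3.3, 3 residual and 5.63 prior degrees of freedom), with Benjamini-Hochberg adjustment over all of them and a threshold of 0.05. Lists are described by counts and medians, with the brightest probe set per gene. Named genes were all members, all tested Sp and Klf genes and the 3 list members with the smallest p; others are marked. Members and lists were chosen with earlier results of these data known. The number of arrays limits the precision. On simulated data of 13575 probe sets, 200 of them changed, the test found 98.4% of 4-fold and 59.5% of 2-fold changes. The measured data gave 11 calls. The adjusted threshold depends on how many probe sets change, so these shares need not hold for the measured data. Replicate numbers 2 and 3 occur in both genotypes and were not used as pairs in the main fit. Deviations of same-numbered arrays from their genotype mean correlated with r of 0.11 and −0.0048. With 2 db/+ arrays each r recurs with the other sign, so these values cannot show whether the numbers mark pairs. Alternatives were other pseudocounts, filters, normalizations, eBayes options, array weights, the replicate block and each array left out.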

Additional observations from a re-analysis of the deposited data

How the results depend on the processing

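At an adjusted p under 0.05 in limma, 0 Krüppel-like factor probe sets were called under each of the 14 alternatives; the smallest adjusted p among them ran from 0.167 (without db/db replicate 2) to 0.891 (without db/+ replicate 3). In the fits without db/+ replicate 2 or 3 the lone db/+ array was assumed to vary like the db/db arrays, and these fits called 0 and 1 of 13575 probe sets, so a count of 0 there says nothing about stability. The tested probe sets of Klf2, Klf4, Klf6, Klf13 and Klf15 were negative at all 14, though with 1 array left out values came as near 0 as −0.0018 (Klf6 1433508_at), −0.0083 (Klf15) and −0.027 (Klf2). The 14 are not separate checks of a log2 difference. Filters and the eBayes option leave it unchanged, and the replicate block gives the same value as leaving out db/db replicate 1. Over all probe sets, 11 were called lower and 0 higher; lower and higher calls were 1 and 0 with pseudocount 1, 32 and 3 with pseudocount 64, 1 and 0 with no filter, 20 and 2 with the filter at the 60th percentile, 18 and 1 with median centring, 34 and 5 with trend and robust eBayes, and 41 and 7 with array weights. Leaving out 1 array gave 0 to 24 lower calls (0 without db/+ replicate 2, 1 without db/+ replicate 3, 24 without db/db replicate 1) and 0 to 4 higher. The cause of these shifts was not tested.

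With the replicate number as a block there were 18 lower and 2 higher calls, and 0 among Krüppel-like factors (smallest adjusted p = 0.384). Replicate number 1 occurs only in db/db, so under the block that array has no part in the difference. The log2 differences are then those without db/db replicate 1. At Klf9 they were −0.00025 (1428288_at) and −0.097 (1436952_at), both of reversed sign.

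Other signs turned for Klf3 1429360_at with quantile normalization (0.0082) and Klf9 1428289_at with median centring (−0.00070). With 1 array left out, log2 differences spanned 0 for Klf3 1429360_at (−0.11 to 0.093), Klf3 1421604_a_at (−0.52 to 0.0058), Klf5 1451021_a_at (−0.13 to 0.0079), Klf10 (−0.045 to 0.13), and for Klf9 at 1428289_at (−0.096 to 0.17), 1428288_at (−0.0043 to 0.17), 1456341_a_at (−0.29 to 0.29), 1436763_a_at (−0.043 to 0.67) and 1436952_at (−0.32 to 0.55). When each gene's probe sets were averaged, list medians turned to −0.061 for Klf15 metabolic targets, 0.0012 for clock genes and 0.041 for immediate early genes; the cause was not tested.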
